A study of Mus musculus with 6 samples.

Results

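The genes described are the transcription factors Gata2, Runx1, Tal1, Lmo2, Lyl1, Fli1 and Erg, known together as the stem cell heptad, and their partners Meis1, Ldb1 and Mecom. They were taken by symbol, and all 10 were found among the 12179 genes of the normalised table and, by the same gene identifier, among the 27179 genes of the count table. RNA-Seq had been performed on long-term HSCs (LT-HSCs, sorted as CD150+CD48- cells of the LSK gate, that is, lineage-negative Sca-1+ c-Kit+ cells) from the bone marrow of C57BL/6 mice of 8 weeks, with 3 libraries labelled WT and 3 labelled Foxm1 heterozygous (Foxm1 HET). Foxm1, a forkhead transcription factor of cycling cells, is deleted from 1 floxed allele in the heterozygous mice. The study used both a Tie2-Cre driver, which acts in blood and endothelial cells, and an interferon-inducible Mx1-Cre driver. Which driver these animals carried is not given for the RNA-Seq, the sample titles name the floxed allele alone, and the controls are described as WT only. The study's methods describe 3 pairs of heterozygous and control animals, a number that fits 1 mouse per library, but the labels do not name the mouse or the pair of a library. The p-values below measure the spread between libraries, part of which may be technical.

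The heptad factors bind together at regulatory elements of blood stem and progenitor cells, where many of their own genes lie among the targets. Lmo2 and Ldb1 do not bind DNA themselves: Lmo2 bridges Tal1 or Lyl1 and a GATA factor, and Ldb1 joins such complexes to each other across distant sites. Gata2, Runx1 and Mecom are each required for HSCs to form or persist in mice, and Tal1 and Lyl1, like Erg and Fli1, are close relatives that can in part stand in for each other.

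No member passed the test of a difference between the genotypes. By the quasi-likelihood method of edgeR, Benjamini-Hochberg adjusted over 8195 genes, 0 of the 10 members passed an adjusted p of 0.05, against 27 genes, or 0.329%, of all genes tested, and the members' adjusted p ran from 0.555 to 0.998. At an unadjusted p under 0.05, 1 member (Mecom, higher in Foxm1 HET) passed, beside 6.03% of all genes in either direction and 3.44% in that direction. DESeq2, limma-voom and limma on the normalised table also called 0 members, though DESeq2 gave Tal1 and Mecom no p. Which member passed an unadjusted p of 0.05 depended on the method. DESeq2 passed Gata2 (829 of 8195 genes passed), limma on the normalised table Gata2 and Ldb1 (576 of 12179), and limma-voom 0 members (271 of 8195). By fitted log2 fold change 4 members were higher and 6 lower in Foxm1 HET, the median over the members was -0.07, and over all genes the median was -0.26 with 54.6% below 0. The genotypes did not overlap for Gata2 and Runx1 in log2 CPM (read counts scaled to the TMM-adjusted library size, on a log2 scale), that is, for 2 of 10 members against 8.68% of all genes. All 10 members passed the filter on low counts, and all 10 had at least 10 reads in every library, as did 30.7% of the genes tested.

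The libraries differed widely. They held 14573002 to 25798509 counted reads and 4467 to 9894 genes with at least 10 reads, Foxm1 HET replicate 2 being lowest in both, and any pair of them correlated at an r of 0.289 to 0.443 in log2 CPM over the genes tested. TMM factors were 0.757 to 1.13 in WT and 0.453 (replicate 2) to 1.67 in Foxm1 HET. Foxm1 itself had 1182, 2615 and 2942 reads in the WT libraries, against 659, 5 and 742 in the heterozygous ones, with no overlap of the genotypes. Its log2 fold change was -3.30 (standard error 2.33, edgeR adjusted p = 0.961), so the deleted gene itself did not pass the test either. Of 10 LT-HSC markers (Mecom among them) 5 had at least 10 reads in every library, and the summed CPM of the 10 was 2711 to 6322 in WT and 3872 to 5328 in Foxm1 HET. Slamf1, which encodes the CD150 of the gate, had at least 10 reads in 2 of 6 libraries, and Ly6a, which encodes Sca-1, in 3 of 6. Cd48, which the gate leaves out, had 221, 6608 and 1 reads in the WT libraries, against 1285, 5 and 22 in the heterozygous ones. All 8 neutrophil markers had at least 10 reads in every library, with a summed CPM of 5261 to 15752 in WT and 1362 to 8366 in Foxm1 HET. For the other lists the summed CPM in WT and Foxm1 HET was 112 to 158 and 195 to 297 (erythroid, 6 of 8 genes with 10 reads in any library), 12.6 to 200.2 and 0 to 6.68 (B cell, 3 of 6), 0 to 4.46 and 0 to 30.5 (T cell, 1 of 3), 15.4 to 381 and 4.60 to 234 (megakaryocyte, 5 of 5) and 16.1 to 180 and 4.34 to 120 (macrophage, 3 of 5). The part of these lists in the members' values was not tested. Markers of endothelial cells and of mast cells are given beside the members those cells also express. In such bulk libraries a smaller share of a cell type and less RNA per cell cannot be told apart.

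Levels were compared between genes per length, in TPM (read counts divided by gene length and scaled to the same total in each library). Lmo2 had the highest mean, 487 ± 228 TPM (SD over all 6 libraries). Below it stood Erg with 279.9 ± 245 TPM, Tal1 with 225 ± 266, Fli1 with 199.6 ± 299, Runx1 with 149 ± 63.0 and Mecom with 146 ± 228. Gata2 with 96.3 ± 98.2 TPM, Meis1 with 76.8 ± 62.2, Lyl1 with 48.2 ± 37.3 and Ldb1 with 47.8 ± 68.3 closed the order. For all 9 pairs of neighbours in this order the ranges over the libraries overlapped, so no neighbouring places are distinguished. The SD over the libraries exceeded the mean for Tal1, Fli1, Mecom, Gata2 and Ldb1, and it was smallest beside the mean for Runx1 and Lmo2.

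**Figure D1:**
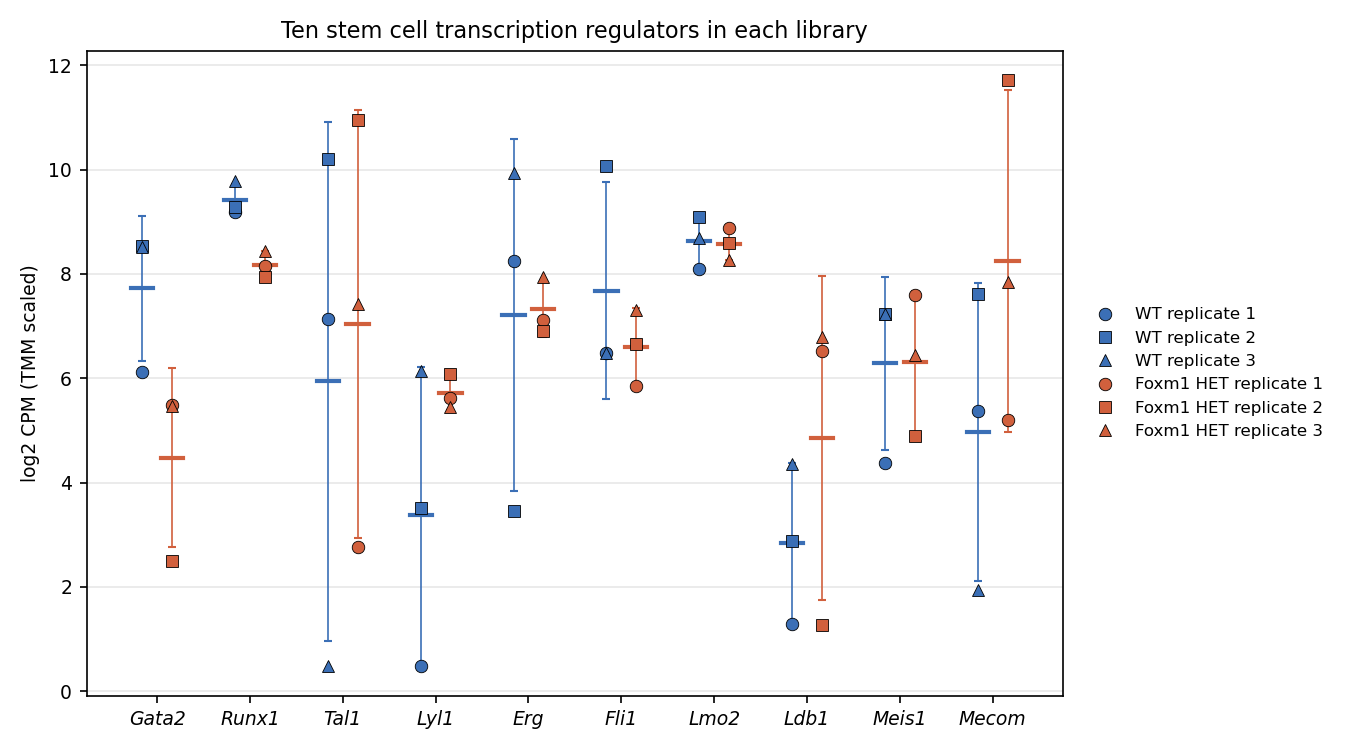
Expression of the 10 genes in each library. The vertical axis is log2 CPM with TMM scaling, each symbol is 1 library (blue for WT, orange for Foxm1 HET, its shape the replicate number), and the horizontal bar and whisker are the mean and SD of 3 libraries. Gata2 and Runx1 have no overlap between colours, while Tal1 runs from 0.48 to 10.19 within WT alone.

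Gata2, a zinc finger factor that binds GATA sites and is needed for HSC survival, had the lowest fold change of the members. It had 1533, 8418 and 5816 reads in WT libraries 1 to 3, against 1695, 36 and 1842 reads in heterozygous libraries 1 to 3. In CPM (the share of the library's reads, without TMM factors) this was 76.4, 366 and 270 in the WT libraries, against 66.6, 2.47 and 71.4 in the heterozygous ones. All heterozygous libraries lay under all WT libraries in CPM, yet WT replicate 1 stood close above Foxm1 HET replicates 1 and 3, and Foxm1 HET replicate 2 lay far under the rest. Mean log2 CPM was 7.72 ± 1.39 (WT) and 4.48 ± 1.72 (Foxm1 HET) (SD, n = 3 each; exact permutation test, two-sided, p = 0.1, with 3 against 3 allowing no smaller p). The fitted log2 fold change was -3.10 (standard error 1.91, 95% interval -6.85 to 0.65, edgeR adjusted p = 0.938), and it was -2.55 without Foxm1 HET replicate 2. In TPM the genotypes did overlap, since Foxm1 HET replicate 3 with 52.6 TPM stood above WT replicate 1 with 51.3 TPM. DESeq2 gave Gata2 an adjusted p of 0.256, the lowest of any member in any alternative, where Gata2 otherwise reached up to 1.

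Mast cells and basophils also express Gata2. The summed CPM of 5 of their markers was 6.52, 536 and 95.7 in WT libraries 1 to 3, against 57.0, 3.02 and 0.233 in the heterozygous ones. The list was thus highest in WT replicate 2, as Gata2 was, but lowest in Foxm1 HET replicate 3, where Gata2 was not. The sums of WT replicates 2 and 3 came mostly from Mcpt8. It had 40, 11736 and 2027 reads in the WT libraries, against 175, 2 and 5 in the heterozygous ones. Cpa3 differed, with 84, 0 and 0 reads in the WT libraries, against 998, 0 and 0 in the heterozygous ones. None of the 5 genes had at least 10 reads in every library, and their part in the Gata2 result was not tested.

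The Gata2 gene lies on chromosome 6 of GRCm38 from 88198664 to 88207032 on the plus strand in the count table. RefSeq (GRCm38.p6) gives Gata2 starts at 88193891 and at 88198664, and the upstream start lies outside the counted gene model, so these counts do not cover its first exon. The 250 bases before the counted start, at chr6:88198414-88198663 on the plus strand, are shown because Gata2 is at 1 end of the members' fold changes.
Gata2, counted start: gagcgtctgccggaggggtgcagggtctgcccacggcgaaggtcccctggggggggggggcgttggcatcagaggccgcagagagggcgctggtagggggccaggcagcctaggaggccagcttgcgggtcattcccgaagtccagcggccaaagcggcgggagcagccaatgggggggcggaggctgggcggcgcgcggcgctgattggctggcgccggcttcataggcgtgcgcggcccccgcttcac
This stretch is all in lower case, since none of the 5 motifs searched on both strands was found in it. For factors of the GATA family the letters searched were AGATAA, which are in 9.988% of the 32851 RefSeq promoter stretches of this length. For E-boxes, the sites of Tal1, Lyl1 and the E proteins, they were CAGNTG, in 44.82% of all stretches. For the ETS family they were GGAAGT, in 19.74%. For the RUNX family they were TGTGGT, in 14.05%, and for Meis proteins TGACAG, in 15.86%. Promoters were found for 8 of the 10 members, 16 in all, and not for Fli1 and Lmo2. Of these 16, 3 held the GATA motif (Erg, Ldb1 and Tal1), 5 the E-box (Erg, Ldb1, Lyl1, Mecom and Runx1), 1 the ETS and 1 the RUNX motif (both Meis1) and 2 the Meis motif (Erg and Mecom). A match describes letters in these windows only.

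Runx1, the DNA-binding subunit of core binding factor, had the smallest SD of log2 CPM within a genotype of the members. Its read counts were 12889, 14106 and 14008 in the WT libraries, against 10869, 1587 and 14518 in the heterozygous ones, which is 642, 613 and 651 CPM in the WT libraries, against 427, 108.9 and 563 CPM in the heterozygous ones. The WT libraries stood within 1.09-fold of each other in TPM, the narrowest range of any member in either genotype, and the heterozygous libraries within 5.61-fold. With TMM scaling the low value of Foxm1 HET replicate 2 drew near the others, at 7.94 against 8.16 and 8.44 log2 CPM in replicates 1 and 3. Mean log2 CPM was 9.42 ± 0.315 (WT) and 8.18 ± 0.251 (Foxm1 HET) (SD, n = 3 each; two-sided exact permutation test, p = 0.1). The genotypes did not overlap on this scale, but did in TPM (177 in WT replicate 3 against 182 in Foxm1 HET replicate 3) and in the normalised table. The fitted log2 fold change of Runx1 was -1.25 (standard error 1.49, 95% interval -4.17 to 1.67, edgeR adjusted p = 0.998) and stayed between -1.35 and -1.08 with any library left out. Runx1 lies on chromosome 16 from 92601466 to 92826066 on the minus strand.

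**Figure D2:**
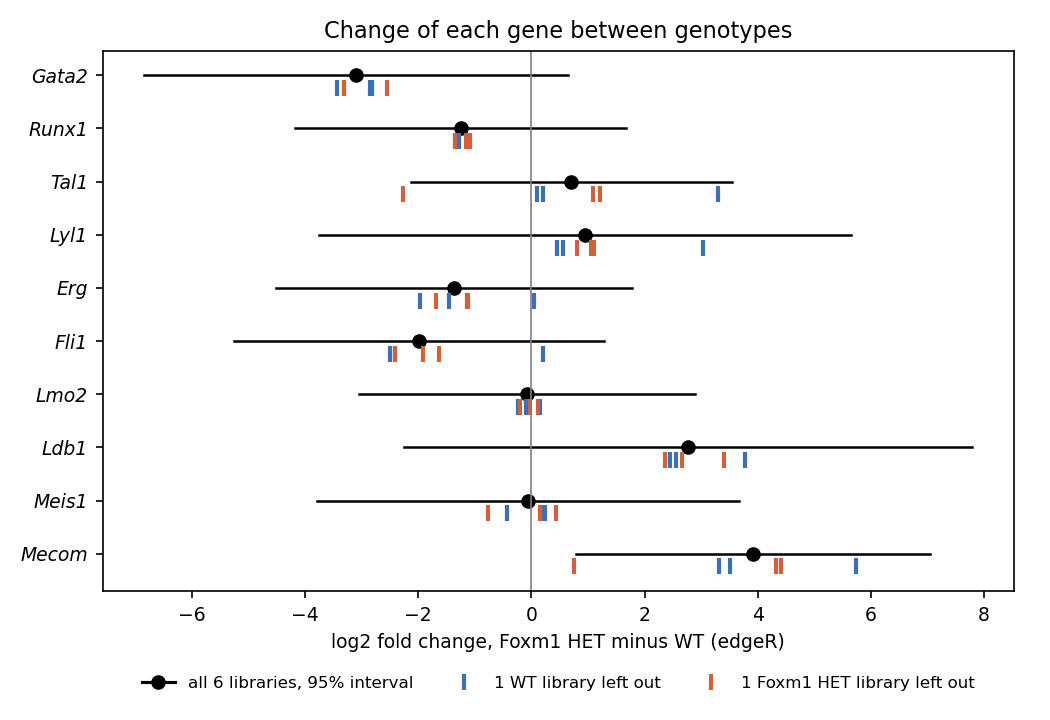
Fitted change of each gene between genotypes. The horizontal axis is the log2 fold change of Foxm1 HET over WT from edgeR, black points and lines are the value and 95% interval from all 6 libraries, and short ticks are the value with 1 WT (blue) or 1 Foxm1 HET (orange) library left out. The interval of Mecom alone lies off 0 before adjustment (0.78 to 7.04), and its tick without Foxm1 HET replicate 2 lies at 0.75.

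Tal1 and Lyl1 encode basic helix-loop-helix factors that pair with E proteins at E-boxes. Tal1 had 3128, 26473 and 21 reads in the WT libraries, against 255, 12738 and 7189 in the heterozygous ones. Its level per length was 81.5, 642 and 0.470 TPM in the WT libraries, against 5.04, 462 and 159.8 TPM in the heterozygous ones. Both genotypes held a library with little Tal1 and a library with far more, and the range within WT was 1365-fold, the widest of any member. Mean log2 CPM of Tal1 was 5.94 ± 4.97 (WT) and 7.04 ± 4.10 (Foxm1 HET) (SD, n = 3 each; two-sided exact permutation test, p = 0.7).

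Lyl1 had 29, 256 and 1123 reads in the WT libraries, against 1863, 437 and 1820 in the heterozygous ones, or 1.75, 14.3 and 58.1 TPM in the WT libraries, against 85.1, 36.6 and 93.5 TPM in the heterozygous ones. The heterozygous libraries were close together and the WT libraries were spread 33.3-fold, with WT replicate 3 inside the range of the heterozygous ones. Mean log2 CPM of Lyl1 was 3.38 ± 2.83 (WT) and 5.71 ± 0.328 (Foxm1 HET) (SD, n = 3 each; two-sided exact permutation test, p = 0.4). The fitted log2 fold change was 0.95 (standard error 2.40, 95% interval -3.76 to 5.65, edgeR adjusted p = 0.998) for Lyl1 and 0.71 (standard error 1.45, 95% interval -2.13 to 3.54, edgeR adjusted p = 0.998) for Tal1. For Lyl1 it was 3.04 without WT replicate 3. For Tal1 the sign turned with single libraries, from -2.27 without Foxm1 HET replicate 2 to 3.30 without WT replicate 2.

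Of the summed TPM of this pair, Tal1 made up 97.9%, 97.8% and 0.803% in WT libraries 1 to 3, against 5.59%, 92.7% and 63.1% in heterozygous libraries 1 to 3. Tal1 was the higher of the pair in 4 of 6 libraries, and Lyl1 in WT replicate 3 and Foxm1 HET replicate 1. The sum ranged 11.2-fold over the 6 libraries, against 1365-fold for Tal1 and 53.5-fold for Lyl1 alone, and was 266 ± 338 TPM (WT) and 281 ± 205 TPM (Foxm1 HET) (SD, n = 3 each). The pair was set side by side after its values had been seen, and the narrower range of the sum has no test.

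Because relatives can share reads, the coding sequences of the pair were compared (GENCODE vM21 transcripts, GRCm38). The longest identical run, 14 bases within the basic helix-loop-helix domain, is shown in capitals in a window of 60 bases inside 1 exon, at chr4:115068283-115068342 (plus strand) for Tal1 and chr8:84703904-84703963 (plus strand) for Lyl1.
Tal1: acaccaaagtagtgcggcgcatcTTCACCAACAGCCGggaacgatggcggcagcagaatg
Lyl1: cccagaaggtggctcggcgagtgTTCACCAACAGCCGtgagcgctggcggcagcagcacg
The run is shorter than the 50-base reads, and none of the 50-base stretches of the Tal1 or Lyl1 transcripts occurs in a transcript of another gene. Tal1 lies on chromosome 4 from 115059527 to 115071755 and Lyl1 on chromosome 8 from 84701457 to 84704716, both on the plus strand.

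Erg and Fli1 are ETS factors that recognise the same GGAA core. Erg had 6738, 245 and 15704 reads in the WT libraries, against 5304, 780 and 10210 in the heterozygous ones, or 330.1, 11.2 and 661 TPM in the WT libraries, against 197, 53.1 and 427 TPM in the heterozygous ones. Replicate 2 was the lowest library in each genotype, and all heterozygous libraries lay within the WT range. Fli1 had 1977, 24354 and 1425 reads in the WT libraries, against 2185, 649 and 6645 in the heterozygous ones, or 69.5, 796 and 43.0 TPM in the WT libraries, against 58.2, 31.7 and 199 TPM in the heterozygous ones. WT replicate 2, the library with the least Erg, had the most Fli1.

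Erg was the higher of this pair in 5 of 6 libraries and made up 82.6%, 1.38% and 93.9% of their summed TPM in the WT libraries, against 77.2%, 62.6% and 68.2% in the heterozygous ones. The sum ranged 9.52-fold over the libraries, against 59.2-fold for Erg and 25.1-fold for Fli1 alone. It was 637 ± 212 TPM (WT) and 322 ± 277 TPM (Foxm1 HET) (SD, n = 3 each), with no test, as this pair too was set together with its values known.

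**Figure D3:**
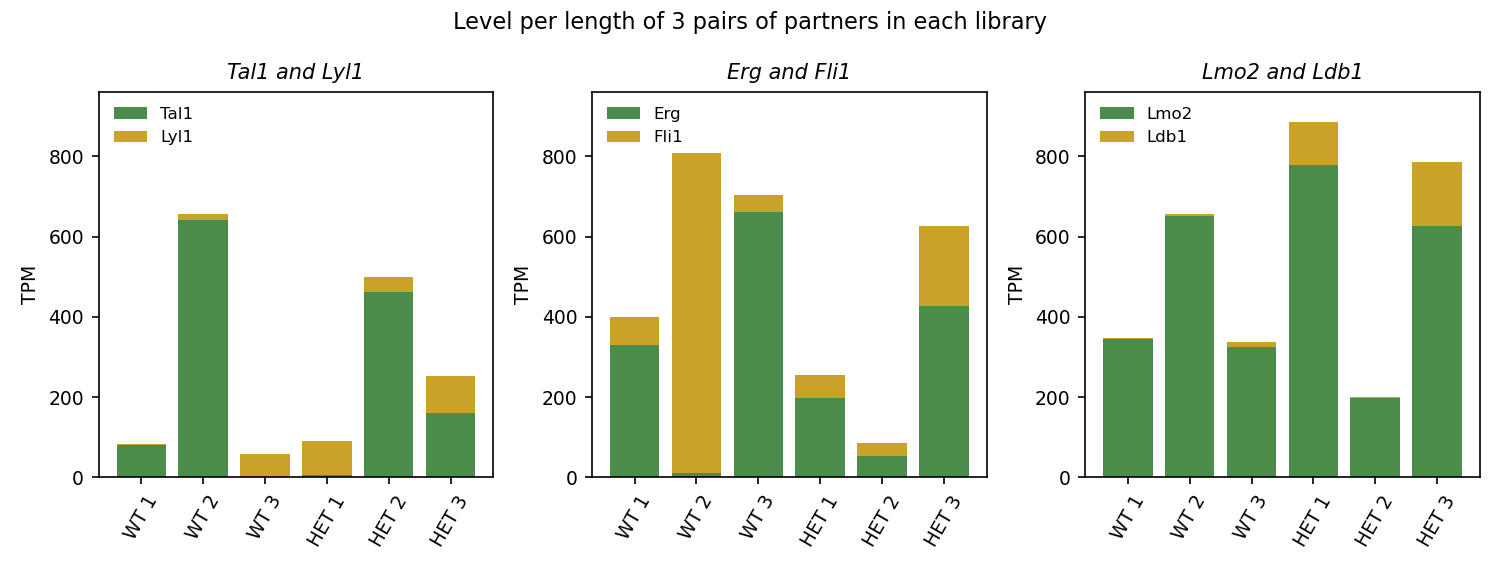
Level per length of 3 pairs of partner genes in each library. The vertical axis is TPM from 0, each stacked bar is 1 library (WT 1 to 3, then Foxm1 HET 1 to 3), and the colours split it between the first gene (green) and the second (yellow). Tal1 is 0.803% of its bar in WT replicate 3 and 97.8% in WT replicate 2, Erg is 1.38% of its bar in WT replicate 2, and Lmo2 is at least 79.7% of every bar.

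Neither ETS gene passed the test between genotypes. For Fli1, mean log2 CPM was 7.68 ± 2.07 (WT) and 6.60 ± 0.735 (Foxm1 HET) (SD, n = 3 each), and the fitted log2 fold change was -1.99 (standard error 1.67, 95% interval -5.25 to 1.28, edgeR adjusted p = 0.982). It was 0.21 without WT replicate 2. For Erg, mean log2 CPM was 7.21 ± 3.37 (WT) and 7.32 ± 0.538 (Foxm1 HET) (SD, n = 3 each), slightly higher in Foxm1 HET, while the fitted log2 fold change was -1.36 (standard error 1.60, 95% interval -4.51 to 1.78, edgeR adjusted p = 0.998). The signs of these measures differ for Erg, and without WT replicate 3 the fitted value was 0.05.

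Erg, Fli1, Tal1 and Lyl1 are also active in endothelial cells. The summed CPM of 6 endothelial markers was 1.26 to 63.7 in WT and 113 to 195 in Foxm1 HET, without overlap of the genotypes, and 0 of the 6 genes had at least 10 reads in every library. The heterozygous sums came from Pecam1 (1052, 1563 and 2 reads), Tek (1082, 91 and 4071), Emcn (249, 0 and 962) and Kdr (658, 0 and 0). In the WT libraries Pecam1 had 97, 2 and 1371 reads, Tek 242, 10 and 1, Emcn 60, 16 and 0 and Kdr 232, 1 and 0. Plvap had 0 reads in every library, and Cdh5 had 51 reads in WT replicate 1 and 0 elsewhere. The part of this list in the results of the ETS and helix-loop-helix genes was not tested.

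The longest identical coding run of Erg and Fli1, 22 bases in the ETS domain, is in capitals in windows of 60 bases inside 1 exon, at chr16:95361145-95361204 (minus strand) for Erg and chr9:32424124-32424183 (minus strand) for Fli1.
Erg: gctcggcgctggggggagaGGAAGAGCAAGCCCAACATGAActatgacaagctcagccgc
Fli1: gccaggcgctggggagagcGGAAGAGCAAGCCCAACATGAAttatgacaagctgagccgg
This run too is shorter than a read. None of the 50-base stretches of Erg and 0.292% of those of Fli1 occur in transcripts of other genes, but 15.8% of the exon bases of Fli1 also belong to another counted gene without a name, so the counting may have split those reads. Erg lies on chromosome 16 from 95360204 to 95530365 and Fli1 on chromosome 9 from 32422208 to 32541368, both on the minus strand.

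Lmo2, the LIM-only bridge, had 6033, 12242 and 6632 reads in the WT libraries, against 17972, 2504 and 12853 in the heterozygous ones, or 344, 650.3 and 325 TPM in the WT libraries, against 778, 199 and 626 TPM in the heterozygous ones. In TPM the heterozygous libraries reached above and below all WT libraries. Mean log2 CPM was 8.62 ± 0.499 (WT) and 8.58 ± 0.310 (Foxm1 HET) (SD, n = 3 each; two-sided exact permutation test, p = 0.9), and the fitted log2 fold change was -0.08 (standard error 1.51, 95% interval -3.04 to 2.89, edgeR adjusted p = 0.998). With Runx1, Lmo2 was the only member whose TPM stayed within 10-fold in both genotypes, and the other 8 exceeded that range in at least 1 genotype. Lmo2 lies on chromosome 2 from 103957995 to 103981878 on the plus strand.

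Ldb1, which joins LIM complexes to each other, had 52, 164 and 325 reads in the WT libraries, against 3480, 15 and 4612 in the heterozygous ones. Its level was 2.11, 6.18 and 11.3 TPM in the WT libraries, against 107, 0.845 and 159 TPM in the heterozygous ones. Foxm1 HET replicates 1 and 3 stood above all WT libraries and replicate 2 under all of them. Mean log2 CPM was 2.84 ± 1.53 (WT) and 4.85 ± 3.11 (Foxm1 HET) (SD, n = 3 each; two-sided exact permutation test, p = 0.4). The fitted log2 fold change was 2.77 (standard error 2.56, 95% interval -2.26 to 7.79, edgeR adjusted p = 0.993), and it was positive with any library left out (2.36 to 3.78). Lmo2 exceeded Ldb1 in all 6 libraries and made up 79.7% to 99.6% of their summed TPM, the lowest shares in the libraries where Ldb1 was high. Ldb1 lies on chromosome 19 from 46032594 to 46045211 on the minus strand, and 2.75% of its 50-base stretches occur, on the opposite strand, in transcripts of Pprc1.

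Meis1, a homeobox cofactor of Hox and Pbx proteins that keeps HSCs quiescent, had 458, 3395 and 2413 reads in the WT libraries, against 7322, 191 and 3653 in the heterozygous ones. In TPM this was 14.4, 99.6 and 65.4 in the WT libraries, against 175, 8.37 and 98.2 in the heterozygous ones. The genotypes overlapped, with the highest and the lowest TPM both in heterozygous libraries. Mean log2 CPM was 6.28 ± 1.65 (WT) and 6.31 ± 1.36 (Foxm1 HET) (SD, n = 3 each), and the fitted log2 fold change was -0.06 (standard error 1.90, 95% interval -3.79 to 3.67, edgeR adjusted p = 0.998). Of the 10853 50-base stretches of Meis1 transcripts, 17.0% also occur in transcripts of other genes, the most of any member (9.16% on the same strand). These stretches far outnumber the 3441 exon bases counted. How many of the shared ones lie in counted bases, and so how far they make the counts less certain, is not known. Meis1 lies on chromosome 11 from 18880428 to 19018969 on the minus strand.

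Mecom, the locus of the zinc finger factors Mds1-Evi1 and Evi1 that sustain long-term HSCs, had the highest fold change of the members. It had 910, 4431 and 60 reads in the WT libraries, against 1393, 21758 and 9561 in the heterozygous ones, or 17.9, 81.3 and 1.02 TPM in the WT libraries, against 20.8, 596 and 160.7 TPM in the heterozygous ones. Foxm1 HET replicates 2 and 3 stood above all WT libraries, and replicate 1 stood beside WT replicate 1 and under WT replicate 2. Mean log2 CPM was 4.97 ± 2.86 (WT) and 8.25 ± 3.28 (Foxm1 HET) (SD, n = 3 each; two-sided exact permutation test, p = 0.3). The fitted log2 fold change was 3.91 (standard error 1.60, 95% interval 0.78 to 7.04, edgeR unadjusted p = 0.0142, adjusted p = 0.555). It was 0.75 without Foxm1 HET replicate 2, the shallowest library, and 5.73 without WT replicate 2.

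RefSeq gives Mecom a start at chr3:30509759 and another at chr3:30013204, and the count table holds 1 gene on chromosome 3 from 29951296 to 30509487 on the minus strand, so the long and short products were counted together. The 250 bases before each start are shown, since Mecom is at the other end of the members' fold changes and its starts cannot be separated in the counts. They lie at chr3:30509760-30510009 and chr3:30013205-30013454, both read on the minus strand, with motif matches in capitals.
Mecom, upstream start: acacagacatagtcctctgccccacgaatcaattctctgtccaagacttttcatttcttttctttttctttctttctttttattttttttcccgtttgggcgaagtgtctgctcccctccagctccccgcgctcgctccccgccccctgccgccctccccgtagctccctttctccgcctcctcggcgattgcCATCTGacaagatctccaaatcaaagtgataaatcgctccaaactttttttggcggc
Mecom, downstream start: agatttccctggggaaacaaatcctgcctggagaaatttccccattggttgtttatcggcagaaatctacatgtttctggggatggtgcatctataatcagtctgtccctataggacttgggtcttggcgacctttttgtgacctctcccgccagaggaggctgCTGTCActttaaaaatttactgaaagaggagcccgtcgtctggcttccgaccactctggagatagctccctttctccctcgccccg
The capitals are 1 E-box match (CAGATG on the other strand), from base -57 of the upstream start, and 1 Meis match (TGACAG on the other strand), from base -86 of the downstream start. Neither overlaps another of the 5 motifs, and an E-box of this kind is in 44.82% of all such stretches.

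Different members peaked in different libraries. The highest log2 CPM of a member fell in WT replicates 2 and 3 for 3 members each, in Foxm1 HET replicate 2 for 2 and in Foxm1 HET replicates 1 and 3 for 1 each. Of the 45 pairs of members, 23 had a Pearson r above 0 over the 6 libraries, and the median r was 0.06. The r was lowest for Fli1 and Erg (-0.806) and next for Gata2 and Mecom (-0.730), and it was highest for Gata2 with Runx1 and for Tal1 with Mecom (both 0.889). These values rest on 6 libraries that share their depth and scaling between genes and are given as a description.

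The mean log2 CPM over the 10 members was 5.68, 7.19 and 6.35 in the WT libraries, against 6.32, 6.75 and 7.14 in the heterozygous ones. The genotype means were 6.41 ± 0.756 and 6.73 ± 0.410 (SD, n = 3 each), so this mean was higher in Foxm1 HET while the median fitted fold change was below 0. Outside the members, the genes most like this mean over the 6 libraries were Mgrn1 (a ubiquitin ligase, r = 0.981), Alas1 (which starts haem synthesis, r = 0.969) and Smchd1 (a chromatin protein of the inactive X chromosome, r = 0.955). The 3 genes were picked for the highest r among all other genes tested, over 6 libraries only, and have no test. Mgrn1 had 24, 6461 and 184 reads in the WT libraries, against 209, 240 and 3760 in the heterozygous ones.

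Spread within a genotype set what could be seen. The SD of log2 CPM within a genotype ranged from 0.285 (Runx1) to 4.56 (Tal1) over the members, with a median of 1.79. Over the 2516 genes that, like the members, had at least 10 reads in every library the median was 1.77, and over all genes tested 3.13. The members' standard errors ran from 1.45 to 2.56 on the log2 scale, with a median of 1.64 against 2.59 over all genes.

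The other regulators and targets that work with the members were followed through a list of 38 genes, of which 34 had enough reads to be tested. By edgeR 0 of the 34 passed an adjusted p of 0.05 and 3 passed an unadjusted p of 0.05, namely Ssbp4 and Gfi1, higher in Foxm1 HET (3.44% of all genes passed in that direction), and Tcf3, lower (2.59%). DESeq2 called 1 of the 34, Gfi1b, but it also called 194 of all 8195 genes tested. At an unadjusted p under 0.05 DESeq2 passed 3 of the list, beside 829 of all genes. Ssbp4, Gfi1 and Tcf3 were not among those 3. DESeq2 may have given some genes of the list no p, as it did for Tal1 and Mecom. The other alternatives called 0 of the list. By sign 18 were higher and 16 were lower, and the median over the 34 was 0.15 on the log2 scale. The genotypes did not overlap for 4 genes, Runx3, Gfi1b and Bmi1 (higher) and Etv6 (lower), where 8.68% of all genes did not. Gata1, the erythroid relative of Gata2, and Ldb2, the relative of Ldb1, had 0 reads in every library, Smad6 had 2 reads in WT replicate 1 only, and Pbx3 had 16, 1 and 32 reads in Foxm1 HET and 0 in WT.

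By class, the GATA relatives and cofactor had 0 of 2 tested genes higher, the E proteins 2 of 3, the RUNX factors and corepressors 2 of 5, the LIM complex genes 1 of 4, the ETS factors 2 of 4, the other regulators 8 of 12 and the surface and signalling genes 3 of 4. Among the genes with the smallest p, Ssbp4, a single-stranded DNA binding protein that steadies Ldb1, had 101, 2 and 11 reads in the WT libraries, against 70, 5990 and 1711 in the heterozygous ones. Its log2 fold change was 7.50 (standard error 2.31, edgeR adjusted p = 0.147), from 3.62 (without Foxm1 HET replicate 2) to 9.63 with each library left out, and Foxm1 HET replicate 1 lay within the WT range. Its relative Ssbp3 had 8230, 397 and 3 reads in the WT libraries, against 1, 140 and 1344 in the heterozygous ones, with a log2 fold change of -2.86 (standard error 2.22, edgeR adjusted p = 0.982) that became 1.05 without WT replicate 1.

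Gfi1 and Gfi1b encode related zinc finger repressors of transcription. Gfi1 had 6, 2 and 118 reads in the WT libraries, against 786, 2053 and 36 in the heterozygous ones, a log2 fold change of 5.45 (standard error 2.65, edgeR adjusted p = 0.776). It ran from 2.14 without Foxm1 HET replicate 2 to 9.23 without WT replicate 3. Gfi1b had 130, 7 and 9 reads in the WT libraries, against 6205, 323 and 1478 in the heterozygous ones. All heterozygous libraries exceeded all WT libraries for Gfi1b, and the log2 fold change was 5.20 (standard error 2.81, edgeR adjusted p = 0.886, DESeq2 adjusted p = 0.0337), from 4.27 to 7.64 with each library left out. The summed CPM of the erythroid markers was 112 to 158 in WT and 195 to 297 in Foxm1 HET, also without overlap. Of these erythroid genes, 0 had at least 10 reads in every library. The summed CPM of the megakaryocyte markers did overlap, at 15.4 to 381 in WT and 4.60 to 234 in Foxm1 HET. The part of either list in the Gfi1b result was not tested.

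Tcf3, the E protein partner of Tal1 and Lyl1, had 848, 28200 and 5 reads in the WT libraries, against 1644, 7 and 2173 in the heterozygous ones. The fitted log2 fold change was -3.74 (standard error 1.82, edgeR adjusted p = 0.776), WT replicate 2 held most of the reads, and the value was 0.69 without that library and down to -4.37 without others. Zfpm1, the GATA cofactor, had 936, 14824 and 124 reads in the WT libraries, against 2368, 3 and 397 in the heterozygous ones, with a value of -3.29 (standard error 1.99, edgeR adjusted p = 0.938) that was -0.09 without WT replicate 2 and -5.43 without Foxm1 HET replicate 1. In read counts both genes peaked in WT replicate 2, as Tal1 and Gata2 did. In log2 CPM, however, Tal1 peaked in Foxm1 HET replicate 2 (10.94 against 10.19 in WT replicate 2), where Tcf3 had 7 reads and Zfpm1 had 3. Cbfb, the subunit that stabilises Runx1 on DNA, had 1465, 10563 and 17885 reads in the WT libraries, against 2790, 210 and 5464 in the heterozygous ones, with a value of -2.81 (standard error 1.68, edgeR adjusted p = 0.934) that was -1.80 without WT replicate 3. Ets1, an ETS factor of lymphocytes, had 1470, 48 and 1137 reads in the WT libraries, against 270, 6959 and 1 in the heterozygous ones, with a value of 2.95 (standard error 1.80, edgeR adjusted p = 0.938) that became -3.63 without Foxm1 HET replicate 2.

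**Figure D4:**
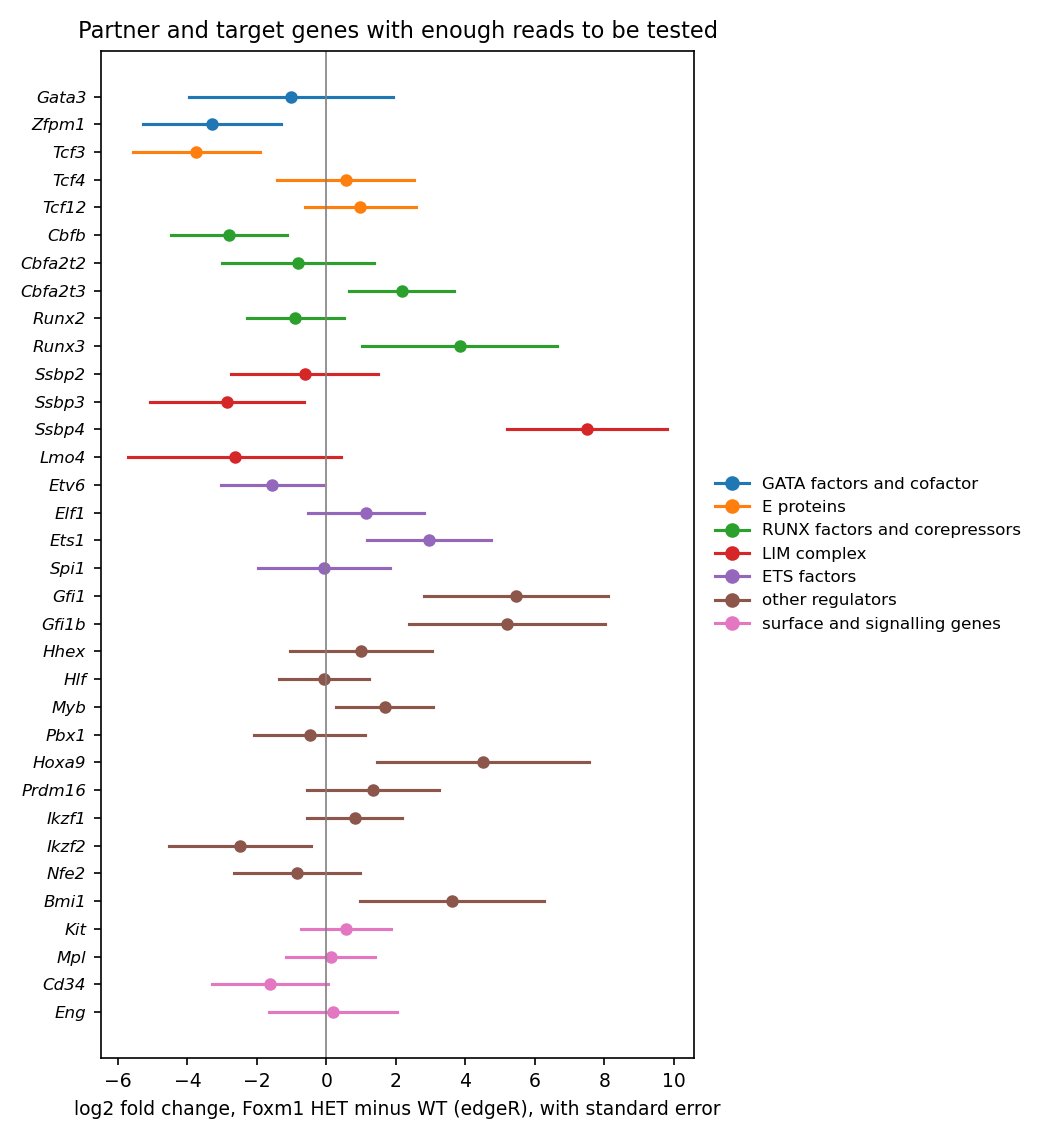
Fitted change of the 34 tested genes of the partner list. The horizontal axis is the log2 fold change of Foxm1 HET over WT from edgeR, points are fitted values, lines are 1 standard error either side, and colours mark the class of each gene. Ssbp4 lies farthest to the right at 7.50 and Tcf3 farthest to the left at -3.74.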

How the data were processed

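RNA was from LT-HSCs in 3 WT and 3 Foxm1 heterozygous libraries, grouped by the genotype label. The labels name a stranded, ribosome-depleted kit and the paper a Clontech kit. The authors checked and trimmed single 50-base reads, aligned them to GRCm38 with STAR 2.7.2b (also in the submitters' processing notes) and deposited raw read counts for 27179 genes. The counting program and its use of strand are not given in the sources used here, so genes on opposite strands may share reads. The authors also deposited a log2 table of 12179 genes, whose libraries share nearly 1 distribution, as quantile normalisation leaves.

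Counts were tested with edgeR 4.0.16 in R 4.3.3 (filterByExpr, TMM, quasi-likelihood test, Benjamini-Hochberg over 8195 genes). Standard errors are log2 fold changes over the square root of F, log2 CPM has a prior count of 2, and TPM was computed from counts and the table's gene lengths. Single genes were also compared with exact permutation tests (scipy 1.17.1). Counting error is small beside the spread between libraries, and PCR duplicates cannot be seen in counts. Alternatives were RLE or no scaling factors, a block for the replicate number, no filter or at least 10 reads in every library, DESeq2 1.42.0, limma-voom and limma 3.58.1 on the log2 table, and each library left out. Other scalings of the overlap count were added after seeing the data. The script was tested on simulated data.

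The members and all gene lists were chosen with earlier results of these data known. Named genes are the members, up to 4 genes higher and 4 lower with the smallest p in the partner list, the 3 genes most like the members' mean, and Foxm1. Genes named for not overlapping, or for having too few reads, were chosen after their values were seen. Sequences are from RefSeq promoters (GRCm38.p6) and GENCODE vM21 transcripts.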

Additional observations from a re-analysis of the deposited data

How the results depend on the processing

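The members called stayed at 0 in all 14 alternatives, with adjusted p from 0.256 to 1. Over all genes the count called moved from 27 to 10 with RLE scaling, 7 with library size only, 0 with at least 10 reads in every library, 194 with DESeq2, 4 with limma-voom and 0 with limma on the normalised table (157 and 576 at an unadjusted p under 0.05 for the pair of zeros). Leaving out 1 library gave 0 to 29, with 0 without WT replicate 1, WT replicate 2 or Foxm1 HET replicate 2 (615, 549 and 626 at an unadjusted p under 0.05) and 1 without WT replicate 3. DESeq2 called 1 partner gene where edgeR called 0. The median log2 fold change of all genes was -0.26 with TMM, -0.13 with RLE and 0.10 with library size only.

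Of 140 alternative values of the members, 117 kept their sign and 23, in 5 members, turned it. The values that turned were 0.24 for Lmo2 with RLE scaling, -0.17 for Tal1, 0.28 for Lmo2 and 0.66 for Meis1 with library size only, 0.089 for Lmo2 and 0.35 for Meis1 with at least 10 reads in every library, 0.24 for Lmo2 with DESeq2, -0.38 for Tal1, 0.45 for Erg and 0.49 for Meis1 with limma-voom, and -0.20 for Tal1, 0.77 for Erg, 0.37 for Lmo2 and 0.98 for Meis1 in the normalised table. With 1 library left out the ranges were -2.27 to 3.30 for Tal1, -2.51 to 0.21 for Fli1, -1.96 to 0.053 for Erg, -0.24 to 0.15 for Lmo2 and -0.77 to 0.44 for Meis1, and 3 (without WT replicate 2) to 6 members were lower in Foxm1 HET. Gata2, Runx1, Lyl1, Ldb1 and Mecom kept their sign in all 14. Gata2 alone, 1 member in place of 2, had genotypes that did not overlap in the normalised table. In that table Tal1 moved from place 3 to 7 in the order of levels, Runx1 from 5 to 3 and Meis1 from 8 to 5. Apart from the steps named for each setting, the cause of these moves was not tested.

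The study describes 3 pairs of mice, but neither its methods nor the labels say that equal replicate numbers mark a pair, and the data gave no sign of it: deviations from the group means correlated at 0.02, -0.03 and -0.07 for equal numbers and -0.07 to 0.06 over all combinations. The libraries were therefore not treated as paired. With the replicate number as a block, edgeR called 0 of all genes (108 at an unadjusted p under 0.05) and 0 members. With standard errors of 1.45 to 2.56 on the log2 scale, only very large differences of a member could have passed at this spread and number of libraries.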

Other observations

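In each library the members were ranked by TPM among all genes of the count table, including those with 0 reads. Genes with 0 reads shared a percentile of 28.9 to 35.4, depending on the library. In Foxm1 HET replicate 2, 1 read placed Pbx3 at 74.4 and 3 reads placed Zfpm1 at 78.4. The lower percentiles below can thus be reached with few reads. The lowest percentile of any member was 73.2, for Tal1 in Foxm1 HET replicate 1. For Lmo2 the lowest was 97.97, in Foxm1 HET replicate 2. Runx1 ran from 93.3 to 98.1. In Foxm1 HET replicate 2, the shallowest library, Mecom was at 99.4 and Tal1 at 99.2, while Gata2, with 36 reads, was at 86.1 and Ldb1, with 15 reads, at 84.7.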
